A study of Mus musculus with 4 samples.

Results

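Thrombospondins are secreted, calcium-binding glycoproteins of the extracellular matrix, and mice have 5 of them: Thbs1, Thbs2, Thbs3, Thbs4 and Comp (cartilage oligomeric matrix protein). A probe set was taken as a member when its deposited gene symbol was exactly one of these names, which gave 7 of the 45101 probe sets on the array, 3 for Thbs2 and 1 for each other gene. The family was chosen from values of this same comparison, so the values of its members are given as a description and without a test. The arrays, Affymetrix Mouse Genome chips, held RNA from the muscle layer of the small intestine, with 2 WT mice, 2 smDicer KO mice and 1 array for each. The smDicer KO mice were smDicer-/-;Cre-GFP/+, the study's name for Dicer lox/Δ;smMHC Cre-GFP/+, and lacked Dicer, which processes miRNAs, in smooth muscle cells. Their Cre recombinase and eGFP are driven by the promoter of smooth muscle myosin heavy chain (Myh11), and the study states that other cells still express Dicer. The study also lists the Δ allele in mice without Cre, classed as heterozygous null. Other cells of the smDicer KO tissue may therefore carry a deleted copy as well. The samples are labelled as jejunum of mice aged 3 weeks, and the muscle was stripped of mucosa and submucosa before RNA was isolated. The study names smMHC Cre-GFP/+ mice as WT and classes several genotypes of its crosses as wild type, and which were arrayed is not given in the sources used here. The smDicer KO mice are described as female, and the sex of the WT mice is not stated separately. In a whole tissue, fewer cells of a type and less RNA per cell cannot be told apart.

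Thbs1 and Thbs2 assemble as trimers and carry type 1 repeats, through which they bind the receptor Cd36 and restrain the growth of blood vessels. They also bind the receptor Cd47, and Thbs1 frees latent TGF-beta. Thbs3, Thbs4 and Comp assemble as pentamers, lack the type 1 repeats and are best known from cartilage, tendon and muscle, where they bind collagens. In the mouse heart and skeletal muscle, Thbs4 also acts inside the cell, where it binds Atf6, a sensor of stress in the endoplasmic reticulum. Thrombospondins signal to cells through integrins, Cd36, Cd47 and the calcium channel subunit Cacna2d1, and are taken up through Lrp1.

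Thbs4 was the member with the widest separation of the groups. It read 9.35 and 9.52 (log2 intensity) in WT and 6.46 and 6.44 in smDicer KO. Both smDicer KO values lay 2.88 or more below the lower WT value, while the values within a group differed by 0.17 in WT and 0.02 in smDicer KO. The difference, smDicer KO minus WT here and throughout, was -2.98 ± 0.13 on the log2 scale (standard error from limma, n = 2 mice per group), which is 7.89-fold lower. Among 20461 genes, each represented by its brightest probe set, Thbs4 had the fourth lowest difference. The smDicer KO values were close to 6, under which log2 values on these arrays lie near background. The probe set aligns to chr13:93521540-93564713 on the minus strand of mouse build NCBIM37, the only build named in the deposited annotation.

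The region around the start of Thbs4 is shown because no other member had such a difference. The RefSeq window of 250 bases before to 50 after the start lies at chr13:92794769-92795068 on the minus strand of GRCm38.p6. It holds 2 copies of CATTCC, the core letters of the MCAT element that TEAD factors bind in muscle genes, beginning 197 and 192 bases before the start and sharing 1 base. The run of 30 bases at chr13:92794995-92795024 (minus strand, GRCm38.p6) that spans both copies reads, from 5′ to 3′ and with the copies in capitals:
Thbs4: tgtccacctCATTCCATTCCgtctggtctc
At least 1 CATTCC on either strand occurs in 14.7% of the 32851 RefSeq windows of this length, and 2 or more on 1 strand in 0.868%. The window of Thbs4 also holds GGGCGG, the GC box bound by Sp1, once on the gene's strand and 2 times on the other, a motif found in 35.7% of windows. Windows were matched for 3 of the 5 members. Those of Thbs2 and Thbs3 hold no CATTCC, and GGGCGG is found once in Thbs3, on the opposite strand, and not in Thbs2. Thbs2 holds CCAAT once on each strand and Thbs3 once on the opposite strand, a motif of 37.4% of windows. A CArG box, the site of serum response factor, was found in none of the 3 windows and in 1.63% of all windows, and a MEF2 site in none and in 0.557%. In all, 12 motifs were searched on both strands. TATAAA (13.6% of windows) was found in Thbs2 only, on the opposite strand, and CANNTG (72.3%) 2 times in Thbs4, 2 times in Thbs2 and once in Thbs3. The searches for GTCTAGAC (0.213%), TGANTCA (7.81%), TTCCNNGAA (4.81%), GCGTGGGCG (0.612%) and TGCGGT or TGTGGT (22.4%) gave no match in the 3 windows. The motif was shown after the windows had been searched, and a match is a run of letters and not a measured site.

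**Figure D1:**
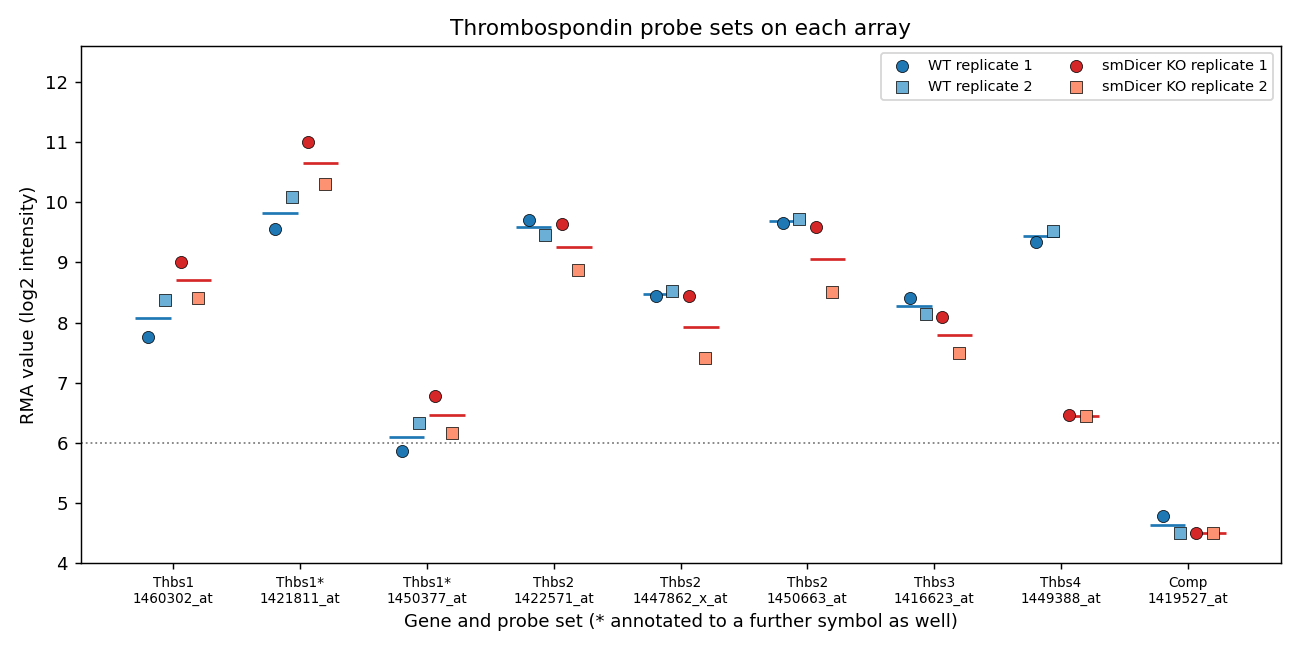
Deposited RMA values (log2 intensity, vertical axis) of the 7 member probe sets and of 2 probe sets that name Thbs1 with a further symbol (horizontal axis), with 1 point per array, horizontal lines at the group means and a dotted line at 6. Thbs4 lies at 9.35 and 9.52 in WT and at 6.46 and 6.44 in smDicer KO, Thbs1 lies higher in smDicer KO by a narrow gap, and smDicer KO replicate 2 is the lowest array for Thbs2 and Thbs3.

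Thbs1, the activator of latent TGF-beta, was the member with a higher mean in smDicer KO. It read 7.77 and 8.37 in WT and 9.01 and 8.40 in smDicer KO, a difference of 0.64 ± 0.31 (1.56-fold higher). The groups did not overlap, but smDicer KO replicate 2 exceeded WT replicate 2 by only 0.03, and the arrays within each group differed by 0.61. The probe set aligns to chr2:117937628-117952869 on the plus strand (NCBIM37). A further 2 probe sets at the same place name a predicted gene, LOC640441, as well as Thbs1, and were therefore outside the rule. The brighter of them, 1421811_at, read 9.55 and 10.09 in WT and 11.01 and 10.31 in smDicer KO, a difference of 0.84 ± 0.32. The dimmer, 1450377_at, read 5.87 and 6.33 in WT and 6.78 and 6.16 in smDicer KO, a difference of 0.37 ± 0.28, and its groups overlapped. In all 3 probe sets that name Thbs1 the mean was thus higher in smDicer KO, and smDicer KO replicate 1 gave the highest value.

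Thbs2, the close relative of Thbs1 that inhibits vessel growth and helps order collagen fibrils, had a lower mean in smDicer KO by all 3 probe sets, and this rested mainly on 1 array. The probe set that stood for the gene, 1422571_at, read 9.71 and 9.46 in WT and 9.64 and 8.88 in smDicer KO, a difference of -0.32 ± 0.29 with overlapping groups. The second, 1450663_at, read 9.66 and 9.72 in WT and 9.59 and 8.51 in smDicer KO, a difference of -0.64 ± 0.38, and its groups did not overlap. The third, 1447862_x_at, read 8.44 and 8.52 in WT and 8.44 and 7.41 in smDicer KO, a difference of -0.56 ± 0.37 with overlapping groups. Set against the WT mean, smDicer KO replicate 1 lay at 0.06, -0.10 and -0.04 in these probe sets and smDicer KO replicate 2 at -0.70, -1.18 and -1.08. The first and second probe sets align to chr17:14802498-14831242 and the third to chr17:14802506-14802734 (minus strand, NCBIM37), which is the 3′ end of the same stretch. The 3 probe sets share the gene and the mice and are not independent measurements of a group difference.

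Thbs3, a pentameric member found in growing skeleton, read 8.41 and 8.14 in WT and 8.09 and 7.49 in smDicer KO. Both smDicer KO values lay below the WT values, by a gap of 0.04 between the nearest arrays, and the difference was -0.48 ± 0.25. The arrays of the smDicer KO group differed by 0.60, more than the difference of the means. Its probe set aligns to chr3:89019128-89030757 on the plus strand (NCBIM37).

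Comp, the cartilage and tendon member, read 4.78 and 4.50 in WT and 4.50 and 4.50 in smDicer KO, a difference of -0.14 ± 0.15 with overlapping groups. These values lay below the median of all probe sets, which was between 5.17 and 5.22 on the 4 arrays. Comp was the only member that did not reach 6 on 2 arrays, whereas the other 6 probe sets did, and no change of it can be read at this signal. It aligns to chr8:72897449-72905965 on the plus strand (NCBIM37).

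The mean was lower in smDicer KO in 6 of the 7 member probe sets. Both smDicer KO arrays lay below both WT arrays in 3 of them (Thbs4, Thbs3 and the second of Thbs2), a pattern seen in 28.5% of all probe sets. Both lay above in 1 (Thbs1), as in 20.6% of all probe sets, and 3 overlapped. Since the family was chosen on this comparison, nothing is read from these counts. The median difference over all probe sets was -0.03.

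**Figure D2:**
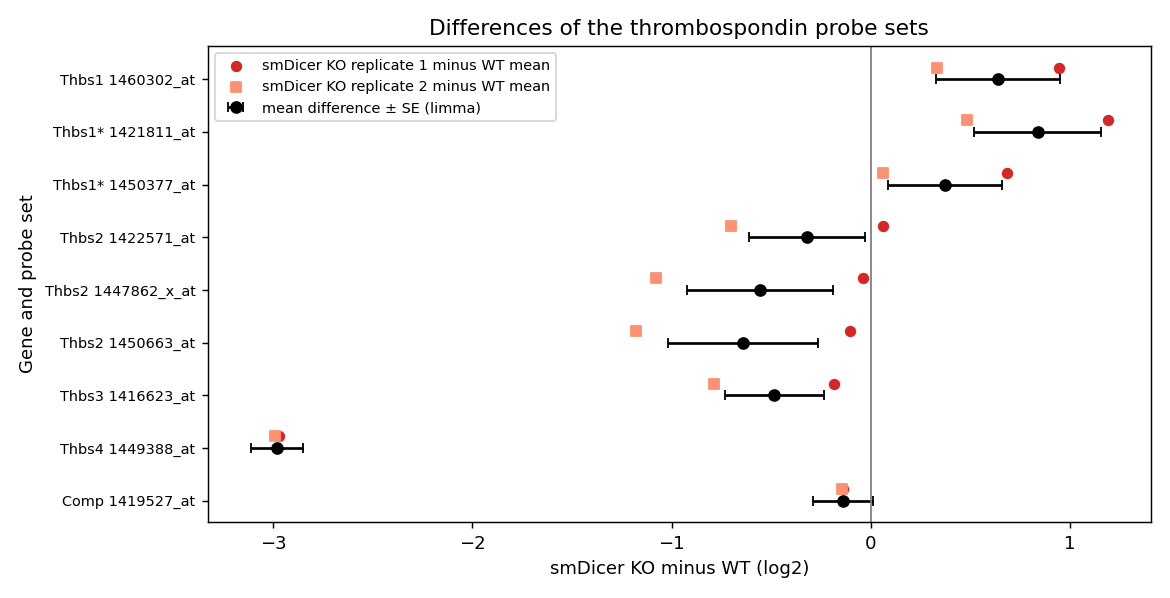
Difference between smDicer KO and WT in log2 units (horizontal axis) for each probe set (vertical axis), with black points and bars for the mean difference ± SE and coloured points for each smDicer KO array minus the WT mean. The arrays lie together for Thbs4 at -2.98 and apart for Thbs1, Thbs2 and Thbs3, where replicate 2 is always the lower one.

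The smDicer KO mice differed from one another more than the WT mice in Thbs2 and Thbs3. In all 7 member probe sets smDicer KO replicate 2 was below replicate 1, by 0.02 for Thbs4 and 0.01 for Comp but by 0.61 for Thbs1, 0.60 for Thbs3 and 0.76 to 1.07 for the probe sets of Thbs2. Genes of other lists separated these arrays too. The median of 9 smooth muscle genes such as Myh11 and Cnn1, each taken minus its WT mean, was also lower on replicate 2, at -0.17 on smDicer KO replicate 1 and -1.01 on replicate 2. In the opposite direction, the median of 10 genes of the mucosal epithelium such as Vil1 and Fabp2 was 3.45 and 6.14, against -0.82 and 0.82 on the WT arrays. For 5 genes of pancreatic acinar cells it was -1.63 and 5.33, against -1.69 and 1.69 in WT, so that replicate 2 of each group was the higher. The part of these cells in the differences of Thbs1, Thbs2, Thbs3 and Thbs4 was not tested. Thbs4 differed by 0.02 between the same smDicer KO arrays, where its values were close to 6. The epithelial median was above both WT arrays on each of them. With smDicer KO replicate 2 left out, the difference was -0.18 for Thbs3, 0.060 for Thbs2, 0.94 for Thbs1 and -2.97 for Thbs4.

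As a check of the labels, Dicer1 read 7.82 and 8.08 in WT and 7.52 and 7.36 in smDicer KO by the brighter of its 2 probe sets, a difference of -0.51 ± 0.16, and -0.49 ± 0.17 by the other. Whether these probes lie in the deleted stretch is not given in the sources used here. Every one of the 9 smooth muscle genes had a lower mean in smDicer KO (median difference -0.62), and all 10 epithelial genes a higher one (median 4.75). The smDicer KO arrays thus carried more epithelial signal, although the muscle is described as stripped of mucosa. Its share in the differences of Dicer1 and of the smooth muscle genes was not tested, so the check does not rest on genotype alone.

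The genes with values most like those of Thbs4 were sought among 11244 genes with a group mean of at least 6, by the Euclidean distance over the 4 arrays of the value minus the WT mean. The nearest was Prelp, a leucine-rich matrix proteoglycan that anchors collagen to basement membranes, at a distance of 0.29. It read 9.90 and 10.15 in WT and 7.17 and 7.29 in smDicer KO, a difference of -2.80 ± 0.15. Next came Pcp4, a small protein that modulates calmodulin, at 0.32. It read 13.14 and 13.19 in WT and 10.46 and 10.32 in smDicer KO, a difference of -2.77 ± 0.13. Klhl30, a kelch-like gene, followed at 0.41 with -2.88 ± 0.21, then Aof1, a histone demethylase now named Kdm1b, at 0.46 with -2.87 ± 0.24, and the Iroquois homeobox gene Irx5 at 0.52 with -3.14 ± 0.30. In each of the 5 genes both smDicer KO arrays lay far below both WT arrays. With 4 arrays, of which 2 are high and 2 low, such a likeness describes mainly the size of the difference.

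**Figure D3:**
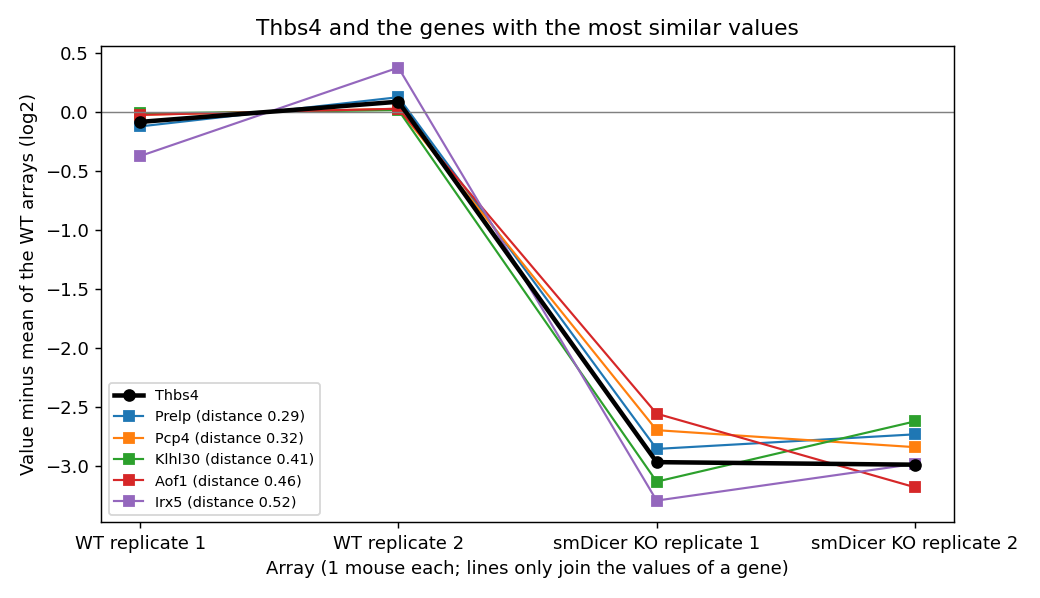
Log2 value minus the mean of the WT arrays (vertical axis) on each of the 4 arrays (horizontal axis) for Thbs4 in black and the 5 genes nearest to it in colour, with the distance in the legend. All lie near 0 on the WT arrays and far below it on the smDicer KO arrays, where the mean was between -2.77 and -3.14, with Irx5 the farthest from Thbs4.

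For the other members the nearest genes followed the low or high smDicer KO arrays. Those of Thbs1 were Ly86, a lymphocyte and macrophage antigen that pairs with a Toll-like receptor homologue (distance 0.15, difference 0.58 ± 0.26), the cyclic nucleotide phosphodiesterase Pde10a (0.18, 0.55 ± 0.31) and the sulphotransferase Chst8 (0.20, 0.57 ± 0.24). Those of Thbs2 were Tmem63a (0.09, -0.36 ± 0.26), 2900024C23Rik (0.09, -0.34 ± 0.29) and Ilk, the integrin-linked kinase of muscle attachment sites (0.10, -0.35 ± 0.26). Those of Thbs3 were the amino acid transporter Slc43a1 (0.04, -0.46 ± 0.24), Tmem100 (0.04, -0.51 ± 0.24) and 6720469N11Rik (0.05, -0.46 ± 0.24). Comp was left out because both its group means were under 6.

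The protein-coding genes next to each member in RefSeq order showed no difference of the size of that of Thbs4. Thbs4 lies between Serinc5 and the metaxin gene Mtx3, and Thbs3 beside the metaxin gene Mtx1. Serinc5 read 7.75 and 8.08 in WT and 7.96 and 7.79 in smDicer KO, a difference of -0.04 ± 0.17, and Mtx3 read 6.82 and 6.85 in WT and 7.32 and 7.06 in smDicer KO, a difference of 0.35 ± 0.15. Both neighbours of Thbs4 were thus level or higher in smDicer KO. Beside Thbs3 the difference was 0.08 ± 0.12 for Mtx1 and -0.11 ± 0.13 for Muc1, beside Thbs2 0.20 ± 0.18 for Smoc2 and -0.04 ± 0.16 for Wdr27, beside Thbs1 0.09 ± 0.12 for Rasgrp1 and -0.18 ± 0.13 for Fsip1, and beside Comp -0.29 ± 0.17 for Upf1 and 0.03 ± 0.13 for Crtc1. None of these 10 genes had an unadjusted limma p under 0.05.

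The genes that act with thrombospondins were followed in 8 lists with 137 measured genes counted in all. None passed an adjusted limma p of 0.05, as 0% of all probe sets did, and at an unadjusted limma p under 0.05 there were 13 lower and 15 higher, which is read beside 10.5% of all genes lower and 7.20% higher. The adjusted limma p of these 28 genes lay between 0.215 and 0.311. Vegfc, Angpt1, Fbln5, Ctgf and Col9a2 were the 5 that passed the unadjusted threshold in every alternative that tested them. The filter on low values removed Angpt1, and the fold limit of 2 was applied only to the count over all probe sets.

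Of 16 thrombospondin receptors, 11 had a higher mean in smDicer KO, and the median difference was 0.17 against -0.04 over all genes. Higher at the unadjusted threshold were 4. Cd36, the scavenger receptor that binds Thbs1 and Thbs2, read 7.92 and 7.85 in WT and 8.38 and 8.39 in smDicer KO, a difference of 0.50 ± 0.12, and its dimmer probe sets gave 0.28 ± 0.18 and 0.27 ± 0.16. The laminin receptor chain Itga6 differed by 0.77 ± 0.28, and by 0.60 ± 0.39 in its dimmer probe set, which missed the threshold. Itgb2 (0.54 ± 0.14) and Nlgn1 (0.55 ± 0.19) had values under 6, and the other probe set of Nlgn1 gave -0.20 ± 0.27. Lower was Cacna2d1, the channel subunit through which Thbs1 promotes synapses, with 10.80 and 11.01 in WT and 10.53 and 10.05 in smDicer KO, a difference of -0.61 ± 0.21. Its dimmer probe sets gave -0.73 ± 0.25 and -0.55 ± 0.32, and those with values under 6 gave 0.31 ± 0.16 and -0.33 ± 0.23. The receptors with the highest mean were Calr, calreticulin, at 0.09 ± 0.16, and Scarb2, a relative of Cd36, at 0.18 ± 0.17, both with overlapping groups. Cd47, the second receptor of Thbs1, read 9.93 and 10.11 in WT and 10.53 and 10.18 in smDicer KO, a difference of 0.34 ± 0.18 that missed the threshold.

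Of 18 matrix partners, 1 was higher and 2 were lower, all with values near or under 6, with a list median of -0.04. The fibrillar collagens that thrombospondins bind gave 12.03 and 12.07 in WT against 12.18 and 12.02 in smDicer KO for Col1a1 (0.05 ± 0.13), and 0.05 ± 0.13 for Col3a1, which with Dcn (0.08 ± 0.18) had the highest mean of the list. The fibril-associated chains Col9a2 (0.86 ± 0.16) and Col9a1 (-0.82 ± 0.25) differed in opposite directions. A second probe set of Col9a1 read 6.17 and 7.39 in WT and 2.93 and 2.89 in smDicer KO (-3.87 ± 0.42), in the same direction as the first but far wider. For Col3a1 a dimmer probe set gave 0.63 ± 0.22, and the matrilin Matn4 was lower in its only probe set (-0.50 ± 0.17). Of 11 proteases and inhibitors that govern thrombospondin cleavage, 10 had a lower mean, with a median of -0.28, but 0 passed the unadjusted threshold and the median was -0.07 without smDicer KO replicate 2. The inhibitors Timp2 (-0.11 ± 0.15) and Timp3 (-0.28 ± 0.19) had the highest mean, and of the 3 dimmer probe sets of Timp3 the dimmest gave -0.56 ± 0.13 with an unadjusted p under 0.05.

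Of 15 genes counted for TGF-beta activation, 2 were higher and 1 was lower, with a median of 0.11. Tgfbi, an adhesion protein named for its induction by TGF-beta, read 11.15 and 10.91 in WT and 11.95 and 11.51 in smDicer KO (0.70 ± 0.20), and the Smad repressor Skil differed by 0.83 ± 0.21 (0.21 ± 0.31 by a dimmer probe set). Ltbp2, a fibrillin-binding relative of the latent TGF-beta carriers that itself does not bind latent TGF-beta, was lower, with 7.93 and 9.11 in WT and 7.22 and 6.40 in smDicer KO (-1.71 ± 0.50). The receptor Tgfbr2, 1 of the 2 genes with the highest mean, differed by 0.06 ± 0.19, and the ligand Tgfb1 by 0.05 ± 0.16.

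Of 21 other matricellular genes, which like thrombospondins act on cells from the matrix without building it, 3 were higher and 3 lower, with a median of -0.01. Fbln5, a fibulin of elastic fibres, read 8.22 and 7.73 in WT and 9.23 and 9.16 in smDicer KO, a difference of 1.22 ± 0.20, while its other probe set, with values under 5, gave -0.17 ± 0.19. Ctgf, a CCN protein, read 10.06 and 9.71 in WT and 10.77 and 11.00 in smDicer KO (0.998 ± 0.18), and Spock2 differed by 0.52 ± 0.15 (0.19 ± 0.12 by a dimmer probe set). Lower were Spp1, osteopontin, whose values were under 5 on every array (-1.58 ± 0.29), the periostin gene Postn (-0.60 ± 0.22) and Smoc1 (-0.55 ± 0.13). The genes with the highest mean were Sparc (0.06 ± 0.12) and its relative Sparcl1 (-0.51 ± 0.20), neither of which passed the threshold.

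Of 24 measured genes whose proteins share the type 1 repeat, 4 were higher and 2 lower, with a median of 0.06. Rspo3, a secreted enhancer of Wnt signals, read 8.71 and 8.92 in WT and 7.52 and 6.30 in smDicer KO, a difference of -1.91 ± 0.43, and its other probe set, with values under 5, gave -0.38 ± 0.15. Its relatives went the other way or missed the threshold, with 0.53 ± 0.19 for Rspo2 and 0.30 ± 0.15 for Rspo1. Spon2, a matrix protein that aids innate immune recognition, was lower, with 9.52 and 9.80 in WT and 9.11 and 8.58 in smDicer KO (-0.81 ± 0.23), while its relative Spon1 was higher (0.51 ± 0.16), as were Unc5c (0.46 ± 0.13) and Hmcn1 (0.41 ± 0.15). The dimmer probe set of Spon2 gave -0.56 ± 0.16 and passed the unadjusted threshold. Those of the higher genes did not pass it, with 0.14 ± 0.14 and -0.10 ± 0.14 for Spon1, 0.02 ± 0.14 for Rspo2 and 0.01 ± 0.15 for Unc5c.

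The 18 genes of the Atf6 pathway, to which Thbs4 is tied in the mouse heart, had a median difference of 0.06, and 1 passed the unadjusted threshold. This was Herpud1, a gene of protein disposal from the endoplasmic reticulum, with 9.38 and 9.72 in WT and 9.01 and 9.06 in smDicer KO (-0.52 ± 0.16). Atf6 itself differed by -0.05 ± 0.13. The chaperones Hspa5 and Hsp90b1, the genes of the list with the highest mean, differed by 0.17 ± 0.25 and 0.08 ± 0.26, and the WT arrays were 0.59 apart for Hspa5 and 0.55 apart for Hsp90b1. The dimmer probe set of Hsp90b1 gave -0.54 ± 0.58 with overlapping groups.

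Of 14 genes of vessel growth and nitric oxide signals, processes that Thbs1 restrains, 1 was higher and 3 were lower, with a median of -0.20. Whether Thbs1 acted on these genes was not tested. Vegfc, a growth factor of lymphatic vessels, read 7.20 and 7.31 in WT and 5.71 and 5.74 in smDicer KO, a difference of -1.53 ± 0.12, and its other 2 probe sets gave -1.07 ± 0.14 and -1.04 ± 0.13. Angpt1, which steadies vessels, read 5.92 and 6.63 in WT and 4.76 and 4.74 in smDicer KO (-1.53 ± 0.26), and its other probe set, with values under 3, gave 0.00 ± 0.14. Vegfb was lower (-0.74 ± 0.18) and the receptor Kdr higher (0.53 ± 0.13). The guanylyl cyclase chain Gucy1a3 (-0.35 ± 0.28) and the kinase Prkg1 (-0.49 ± 0.19), which carry the nitric oxide signal in smooth muscle, had the highest mean and did not pass the threshold, but their dimmer probe sets gave -0.72 ± 0.23 and -0.70 ± 0.22 for Gucy1a3 and -0.80 ± 0.25 for Prkg1, all with an unadjusted p under 0.05.

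**Figure D4:**
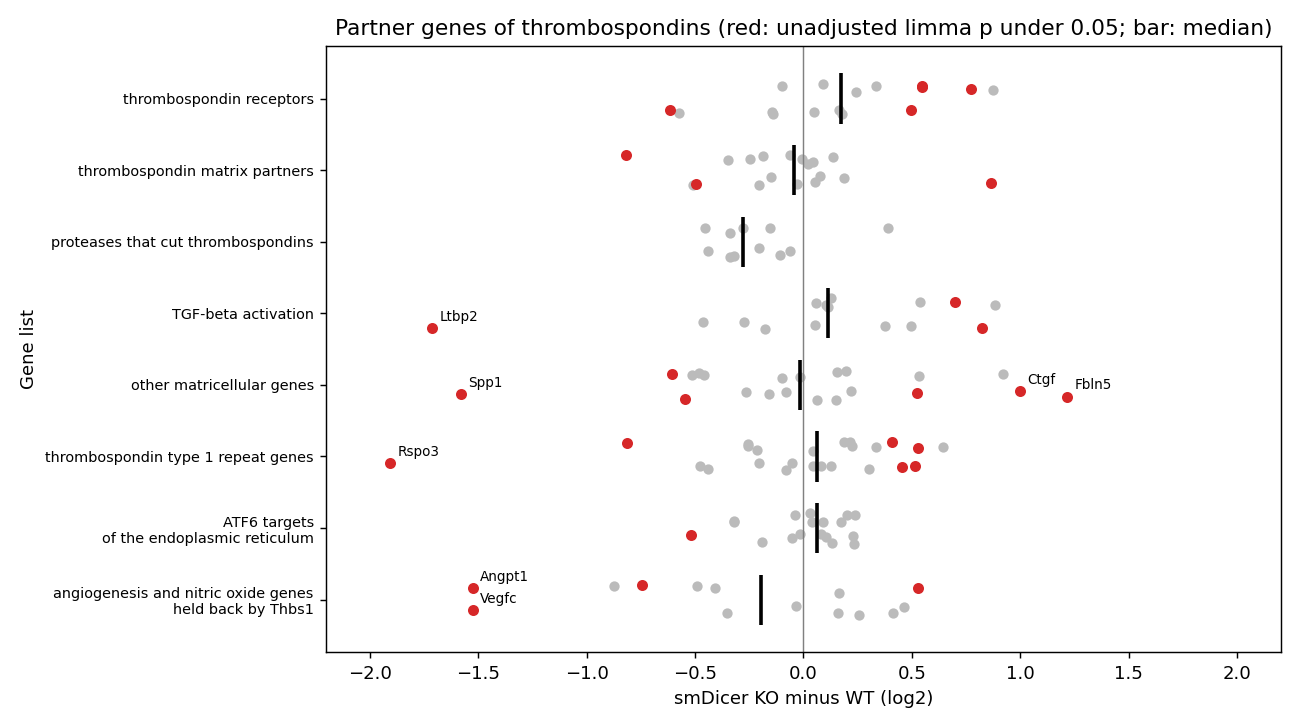
Difference between smDicer KO and WT in log2 units (horizontal axis) for the 137 genes counted in the 8 lists of thrombospondin partners (vertical axis), with red points for an unadjusted limma p under 0.05 and a black bar at the median of each list. The medians lie between -0.28 and 0.17, and the widest differences in each direction are those of Rspo3 at -1.91 and Fbln5 at 1.22.

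Genes of cells known to make thrombospondins were read beside these values. Their counts at the unadjusted threshold are read beside 10.5% of all genes lower and 7.20% higher. Thbs4 marks interstitial cells of Cajal in some tissues, and of 5 genes measured for these pacemaker cells 4 had a higher mean in smDicer KO, with Kit at 0.12 ± 0.21, Ano1 at 0.32 ± 0.15, Etv1 at 0.52 ± 0.18 and Prkcq at 0.45 ± 0.16. The fifth, Gja1, differed by -0.55 ± 0.23. Platelets store Thbs1, and of 8 platelet genes 3 were lower and 0 higher at the unadjusted threshold. Pf4, the platelet factor that macrophages can also carry, read 8.78 and 8.27 in WT and 7.52 and 7.81 in smDicer KO (-0.86 ± 0.23), whereas 5 of the 8 had a mean under 6. Tendon and cartilage are rich in Thbs4 and Comp, and 8 of 9 genes of these tissues had a mean under 6, with Tnmd between 2.42 and 2.65 on the 4 arrays. Of the 9, 8 had a lower mean in smDicer KO (median difference -0.10), and 1 passed the unadjusted threshold. This was the tendon regulator Mkx, with 4.85 and 5.46 in WT and 4.47 and 3.95 in smDicer KO (-0.95 ± 0.29). Of 7 fibroblast genes, 1 was lower (Dpt, -0.87 ± 0.28), and the list median was 0.05. Among 8 genes of skeletal muscle, in which Thbs4 is also made, 4 were lower and 1 higher. Ckm read 10.77 and 11.03 in WT and 9.04 and 8.11 in smDicer KO (-2.33 ± 0.34), and Acta1 9.89 and 8.82 against 8.45 and 7.29 (-1.49 ± 0.54). Tnnt3 (-1.02 ± 0.18) and Actn3 (-0.52 ± 0.14) were also lower, with values under 6. The higher gene was Myod1 (0.51 ± 0.14), which like Myh1, Myh4 and Myog stayed under 5 on every array. The share of any of these cells in the difference of Thbs4 was not tested.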

How the data were processed

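RNA from the small intestinal muscle of 2 WT and 2 smDicer KO mice was hybridised to Affymetrix arrays. The authors had the arrays normalised with RMA, as the labels name too without a version, and the deposited log2 values were used without further scaling. The deposited tables also hold a fold change and a p-value from the authors' own comparison, which were not used; gene symbols and alignments came from the annotation beside them. Differences were fitted with limma 3.58.1 in R 4.3.3 (lmFit, eBayes) and p-values adjusted by Benjamini and Hochberg over 45101 probe sets. An exact permutation test of 2 against 2 arrays cannot give a two-sided p under 0.333. For each gene the probe set with the highest mean was taken from 36804 with 1 symbol, and 2005 with several symbols, 6228 with none and 64 control probe sets were left out. Tables used pandas 2.3.3 and numpy 2.4.6 in Python 3.11.15, and plots matplotlib 3.10.9. The script was tested on simulated data. Promoter windows came from RefSeq (GRCm38.p6), of which only sequence, gene order and names were used.

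The members and lists were chosen with earlier results of these data known. Named are all members, in each list the 2 genes with the highest mean and those with an unadjusted p under 0.05 and a log2 difference of at least 1, the 5 genes nearest to Thbs4 and 3 nearest to each other member with a group mean of at least 6, Dicer1 and marker genes. Other list genes past the unadjusted threshold, the neighbours of the members, Cd47, Tgfb1, Atf6, Col1a1 and Rspo1 were named after their values were seen. Further marker lists were enteric neurons (9 of 9 genes with a higher mean, median difference 0.81), enteric glia (median 0.21), macrophages (0.36), endothelium (0.16), mesothelium (0.37) and red blood cells (-0.06). Alternatives were a linear model without moderation, eBayes with a trend and robust, a filter that kept 18345 probe sets with at least 6 on 2 arrays, cyclic loess, arrays centred on their medians, a block for the replicate number, leaving out each array, the median over the probe sets of a gene and a fold limit of 2. Of the TGF-beta list, 1 gene is not reported here and was left out of all counts of the list. The arrays give no counts, and their number limits the precision.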

Additional observations from a re-analysis of the deposited data

How the results depend on the processing

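Thbs4 was lower under all 11 alternatives, from -3.07 to -2.89 with an array left out and -2.87 with cyclic loess. Several alternatives cannot change the differences of Thbs4, Thbs1 and Thbs3. They are the unmoderated model, eBayes with a trend, the filter, the replicate block and the median over probe sets. Nor can leaving out an array change their signs, as their groups do not overlap. Thbs1 stayed higher (0.33 to 0.94) and Thbs3 lower (-0.79 to -0.18), while Thbs2 went from -0.70 to 0.060 with an array left out and changed sign without smDicer KO replicate 2. Comp (-0.28 to 0.00) was removed by the filter on low values. Probe sets at an unadjusted p under 0.05 numbered 7126, of which 4237 were lower and 2889 higher; the count was 4377 (2788 lower, 1589 higher) with the filter, which tests fewer probe sets, 4535 (1598 higher) with the unmoderated linear model, 1287 with the fold limit of 2, and 2249 to 9801 (1436 to 5659 lower, 813 to 4258 higher) with an array left out. Cyclic loess turned the split to 3284 lower and 3831 higher. At an adjusted p under 0.05 there were 0, and 0 to 378 with an array left out, the 378 without smDicer KO replicate 1. Of the partner genes 13 were lower and 15 higher, against 5 and 7 with the unmoderated model, 4 to 24 and 3 to 20 with an array left out (the fewest without WT replicate 2, the most lower without smDicer KO replicate 1), 24 higher with cyclic loess and 7 higher with the median over the probe sets of a gene. The cause of these shifts was not tested. The medians of the 8 lists moved by less than the spread between replicates in 78 of 88 cases, but those of the matrix partners, TGF-beta activation, the other matricellular genes and the Atf6 pathway, all within 0.12 of 0, changed sign when an array was left out. The 88 cases include the unmoderated model, eBayes with a trend and the replicate block, which cannot change a list median. The 28 partner genes past the threshold kept their direction in every alternative that tested them, and 5 passed it in each of these. Leaving out an array could not reverse the direction of any of the 28, as the groups of each did not overlap. The unmoderated model, eBayes with a trend, the replicate block and the filter leave the difference as it was. The filter on low values removed some of the 28, with Angpt1 among the 5, and the fold limit was not applied to them. With the replicate number as a block, which the labels give no ground to treat as a pairing (correlation of same-numbered deviations 0.25, 2 pairs), 3683 probe sets were lower and 3000 higher, and the difference of Thbs4 was -2.98.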
